A study of Mus musculus with 10 samples.

Results

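The genes described here are Hoxd12, Hoxd11, Hoxd10, Hoxd9, Hoxd8, Hoxd4, Hoxd3 and Hoxd1, the genes of groups 1 to 12 in the HoxD cluster. They were taken by symbol, and all 8 had a row among the 24500 genes of the count tables. ChIP-seq was performed on mouse E14 embryonic stem (ES) cells, labelled as strain 12910la, with antibodies against trimethylated lysine 27 of histone H3 (H3K27me3) and against EZH2. Control cells carried wild-type Ezh2. Cells called ex14D-Ezh2, or ex14D, carried an insertion or deletion made with CRISPR-Cas9 in exon 14 of Ezh2, which shifts the reading frame of transcripts that include this exon and leaves the isoform that skips it. Their titles name a knockout of Ezh2 and their genotype label a knockout of exon 14, and they were taken as ex14D from the genotype label. Neither the labels nor the methods say whether the ex14D libraries came from 1 clone or from several, and counts on genes cannot check the mutation. Each antibody had 2 libraries per genotype, and each genotype had 1 input library of chromatin taken without an antibody, 10 libraries in all.

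Hox genes encode homeodomain transcription factors that give cells along the body axis and the limb their positional identity, and their order along a chromosome follows the order in which they are expressed. In ES cells these clusters are a classical target of Polycomb repressive complex 2 (PRC2), in which EZH2 is the catalytic subunit that methylates lysine 27 of histone H3. The resulting H3K27me3 covers silent Hox clusters as broad domains rather than as narrow peaks at promoters.

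In GRCm38 all 8 genes lie on the forward strand of chromosome 2, where the annotated spans run over 90130 bp from Hoxd12 (chr2:74675013-74677705) to Hoxd1 (chr2:74762980-74765142). Between them follow Hoxd11 (chr2:74679558-74687016), Hoxd10 (chr2:74691891-74695106), Hoxd9 (chr2:74697763-74700208), Hoxd8 (chr2:74704615-74707933), Hoxd3 (chr2:74711993-74748271) and Hoxd4 (chr2:74721978-74729160). The span of Hoxd4 lies entirely inside that of Hoxd3. H3K27me3 and input reads had been counted in 1000 bp windows centred on the most 5′ transcription start of each gene, and a read that falls on more than 1 counted interval is assigned to none. The window of Hoxd1 overlaps that of Haglr, an antisense non-coding RNA gene, so that only 84 bp of it belong to Hoxd1 alone, whereas the windows of the other 7 genes share no base. Hoxd11 has another annotated start further downstream, and the start used for its window by the authors is not known.

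The sequences of 4 sites were read from the reference to show how far the base composition varied among promoters of this cluster. The first is the product amplified by the study's ChIP-PCR primers at Hoxd9 (chr2:74697604-74697714), which is 111 bp long, ends 49 bp before the start of Hoxd9 and is printed with the primer sites in capitals. It lay inside an H3K27me3 peak or an EZH2 domain in each of the 8 ChIP libraries. The other sequences are the 250 bases upstream of the starts of Hoxd10 (chr2:74691641-74691890), Hoxd4 (chr2:74721728-74721977) and Hoxd1 (chr2:74762730-74762979) in RefSeq for GRCm38.p6, on the forward strand and with each CG dinucleotide in capitals. They were chosen because Hoxd10 had the largest H3K27me3 increase, Hoxd4 the lowest enrichment and Hoxd1 the most CG dinucleotides.
Hoxd9 product: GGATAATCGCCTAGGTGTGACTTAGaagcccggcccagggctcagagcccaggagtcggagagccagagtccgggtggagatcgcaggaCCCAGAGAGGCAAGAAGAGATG
Hoxd10: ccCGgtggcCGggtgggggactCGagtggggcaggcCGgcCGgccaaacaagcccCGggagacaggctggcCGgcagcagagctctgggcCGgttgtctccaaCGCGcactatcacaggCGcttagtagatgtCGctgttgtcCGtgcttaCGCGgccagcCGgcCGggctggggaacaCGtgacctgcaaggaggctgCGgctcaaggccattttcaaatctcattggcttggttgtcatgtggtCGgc
Hoxd4: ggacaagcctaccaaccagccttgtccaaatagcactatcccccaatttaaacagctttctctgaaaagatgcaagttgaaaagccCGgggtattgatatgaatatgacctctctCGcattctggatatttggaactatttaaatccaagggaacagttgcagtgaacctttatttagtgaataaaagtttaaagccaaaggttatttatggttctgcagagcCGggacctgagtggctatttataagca
Hoxd1: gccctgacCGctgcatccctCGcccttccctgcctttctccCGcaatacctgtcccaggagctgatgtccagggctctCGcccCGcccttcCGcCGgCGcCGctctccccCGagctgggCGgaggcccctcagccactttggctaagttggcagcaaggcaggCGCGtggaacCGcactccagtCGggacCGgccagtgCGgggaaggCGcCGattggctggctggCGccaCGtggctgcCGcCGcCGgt

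The 250 bases upstream held 20 CG dinucleotides at Hoxd10, 3 at Hoxd4 and 24 at Hoxd1. The other main starts had 10 at Hoxd12, 2 at Hoxd11, 13 at Hoxd9, 6 at Hoxd8 and 12 at Hoxd3, and the median of 32851 RefSeq promoters was 6. At Hoxd1, 88.0% of those promoters had fewer CG dinucleotides, and at Hoxd4, 29.0% had fewer. The other start of Hoxd11 had 20. Hoxd4 was also the only member with the letters TATAAA on either strand of these bases, which 12.4% of all promoters hold. Over the whole 1000 bp windows, Hoxd4 had 13 CG dinucleotides, and the other members had between 44 at Hoxd11 and 93 at Hoxd1.

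In control cells all 8 promoters were enriched in H3K27me3 over input. Reads were scaled to the same total of reads on genes in every library, as CPM, and levels were compared as log2((CPM + 1)/(input CPM + 1)), since all windows have the same nominal length. The median of this ratio over the 8 genes was 3.25 in control and 4.35 in ex14D, against −1.51 and −1.93 over all 24500 genes. Each library of either genotype had every member at 2-fold over its input or more, and 2776 of all genes met this in both control libraries and 2240 in both ex14D libraries. The inputs gave at most 34 reads at any member and 1 library per genotype, so the ratios carry the counting error of the input and no test was made. Promoters of 6 genes active in ES cells (Pou5f1, Nanog, Sox2, Zfp42, Klf4 and Esrrb) had medians of −2.13 and −2.45 on the same scale, and Klf4 was the highest among them at 1.54 in control.

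In control cells Hoxd11, a regulator of forearm and kidney development, had the highest ratio of the cluster, 4.01 ± 0.19 (SD, n = 2), and ranked 59 of 24500 genes. Hoxd9, Hoxd8 and Hoxd10 followed at 3.51 ± 0.18, 3.47 ± 0.21 and 3.46 ± 0.17, within the sum of their SDs. Hoxd9 was slightly above Hoxd8 and Hoxd10 in each library. Both libraries of a genotype were divided by the same input, so the SDs of these ratios leave out its counting error. Hoxd3 (3.03 ± 0.22), Hoxd12 (2.92 ± 0.08) and Hoxd1 (2.63 ± 0.26) came next. Neighbours among these were within the sum of their SDs, but had the same order in both libraries. Hoxd4 was lowest at 1.72 ± 0.35, below each of the others in both libraries. The input at Hoxd1 held only 2 reads, so the place of Hoxd1 in this order is uncertain.

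The order of the ratios differed in ex14D cells. Hoxd10, which helps specify lumbar motor neurons and hindlimb pattern, was first at 5.62 ± 0.28 and ranked 9 of 24500, and Hoxd9 came second at 5.25 ± 0.21, within the sum of their SDs. Hoxd3, Hoxd8 and Hoxd11 had 4.69 ± 0.17, 4.44 ± 0.18 and 4.26 ± 0.20, and each was within that spread of the next. Both ex14D libraries nevertheless held these genes, from Hoxd10 to Hoxd11, in the same order. All were higher in replicate 2, a shift that the SDs include. The inputs at Hoxd3, Hoxd8 and Hoxd11 held 14, 25 and 34 reads, and the error of these counts is not in the SDs. On the CPM scale Hoxd3 was below both, at 897 ± 105 against 1332 ± 168 at Hoxd8 and 1592 ± 222 at Hoxd11. Hoxd12 (3.66 ± 0.18) and Hoxd1 (3.55 ± 0.28) were within the sum of their SDs, with Hoxd12 higher in each library. Hoxd4 was again lowest at 2.88 ± 0.03. The input at Hoxd1 held only 1 read, so the place of Hoxd1 in this order is uncertain.

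The counts behind these ratios are described first for the genes at the 5′ end of the cluster, which are expressed last and most posteriorly, in the trunk and the limb bud. At Hoxd12, H3K27me3 was 582 and 540 CPM in the control libraries and 928 and 1102 CPM in the ex14D libraries, with inputs of 73.3 and 79.2 CPM. At Hoxd11 the control libraries had 794 and 662 CPM and the ex14D libraries 1435 and 1749 CPM, with inputs of 44.0 and 81.6 CPM. At both genes each ex14D library was above each control library. Because the ex14D input at Hoxd11 was also higher, 34 reads against 18, the ratio over input overlapped between genotypes there, at 4.14 and 3.88 in control and 4.12 and 4.41 in ex14D.

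At Hoxd10 the control libraries had 655 and 555 CPM and the ex14D libraries 1483 and 1950 CPM, with inputs of 53.7 and 33.6 CPM. At Hoxd9, which acts with its paralogs in the limb and the lumbar spinal cord, the values were 712 and 598 CPM in control and 1516 and 1854 CPM in ex14D, with inputs of 56.2 and 43.2 CPM. On the CPM scale these genes had the widest distance between genotypes in the cluster, and no ex14D library fell below a control library.

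Hoxd8, in the centre of the cluster, had 762 and 620 CPM in control and 1214 and 1451 CPM in ex14D, with inputs of 61.1 and 59.98 CPM. Hoxd3, which patterns the first cervical vertebrae together with its paralogs, had 518 and 419 CPM in control and 823 and 971 CPM in ex14D, with inputs of 56.2 and 33.6 CPM. Both genes were higher in each ex14D library than in each control library, by less than Hoxd10 and Hoxd9.

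Hoxd4, a gene of the hindbrain and the cervical vertebrae that responds to retinoic acid, had 165 and 233 CPM in control and 336 and 348 CPM in ex14D. Its inputs, 58.6 and 45.6 CPM, were close to those of Hoxd3, so the low ratio of Hoxd4 came with a low H3K27me3 count and not with a high input count. Hoxd1, the gene at the 3′ end, which is expressed in early mesoderm and in sensory neurons, had 40.4 and 30.9 CPM in control and 33.8 and 44.9 CPM in ex14D, and the genotypes overlapped. Only 24, 29, 49 and 56 reads lay behind these values, and 2 and 1 in the inputs. Expressed per kb of the 84 bp that Hoxd1 does not share, the reads were 286 and 345 in control and 583 and 667 in ex14D, in libraries of unequal depth.

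**Figure D1:**
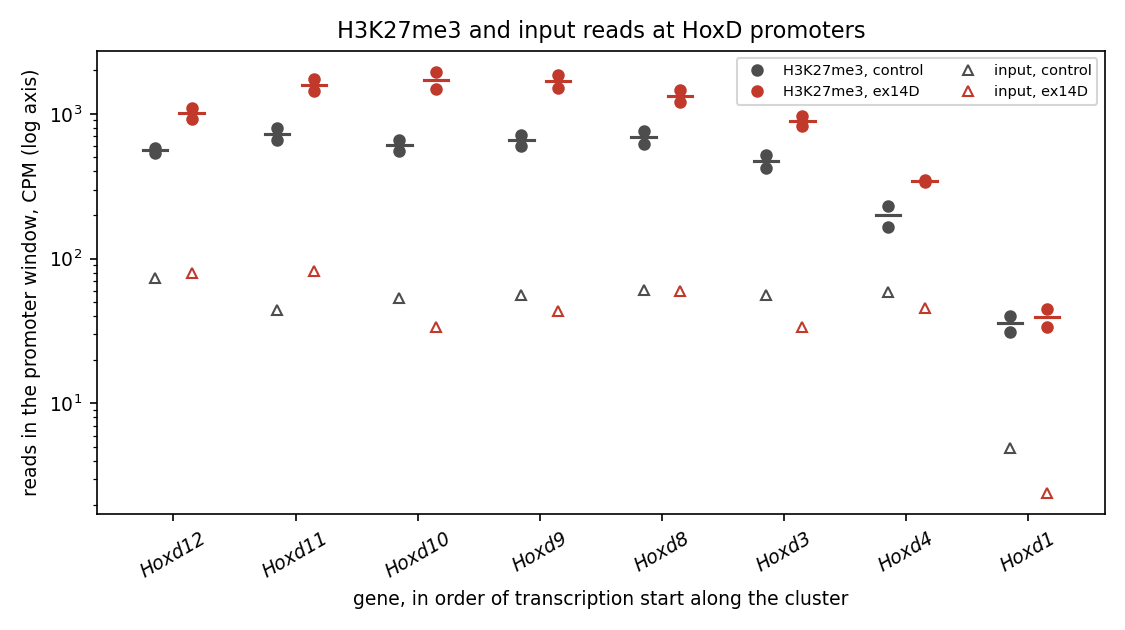
H3K27me3 and input reads in the promoter window of each HoxD gene, in CPM on a log axis, with the genes in order along the cluster. Filled circles are single H3K27me3 libraries, horizontal lines their means (n = 2) and open triangles the single input library of each genotype. The ex14D circles lie above the control circles at 7 genes, and at Hoxd1 they overlap. How many of all promoters separate in this way was not counted.

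The comparison of genotypes asks whether the mark at each promoter differed when the isoform with exon 14 was lost. TMM scaling and the quasi-likelihood test of edgeR were used, with Benjamini-Hochberg adjustment over the 14883 promoters that passed the filter on low counts, which included all 8 members. H3K27me3 was higher in ex14D at 7 of 8 members, and none was lower. Among all promoters tested, 867 (5.83%) were higher and 483 (3.25%) were lower. The median log2 fold change was 1.39 over the members and −0.03 over all promoters.

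Hoxd10 had the largest increase, a log2 fold change of 1.96 (SE 0.21, adjusted p = 1.81e-06), or 3.88-fold. Hoxd9 increased by 1.81 (SE 0.21, adjusted p = 1.81e-06) and Hoxd11 by 1.58 (SE 0.21, adjusted p = 8.04e-06). Hoxd8 (1.40), Hoxd3 (1.39) and Hoxd12 (1.30) had nearly equal changes, with SEs of 0.20 to 0.21 and adjusted p-values of 3.28e-05, 3.55e-05 and 4.87e-05. Hoxd4 increased by 1.22 (SE 0.21, adjusted p = 0.000233), or 2.33-fold, although its level was the lowest relative to input. Hoxd1 did not pass the threshold, with 0.60 (SE 0.35, adjusted p = 0.345), and it had the largest SE of the members.

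These values are relative to the other promoters of the same libraries. No spike-in is named in the sources used here, so the amount of H3K27me3 per cell cannot be read from them. By ChIP-PCR the paper reports less H3K27me3 at Hoxd9 in ex14D cells, and by Western blot a lower total level. Its ChIP-PCR also found less at Hoxa10, Bmp6, Pax7, Elavl3, Shc3 and Runx2. Those measures are on other scales than the relative counts given here, and the difference in direction was not tested. With scaling by library size alone the median over all promoters fell from −0.03 to −0.47, and 398 promoters were higher and 2130 lower, against 867 and 483. Under that scaling all 8 log2 fold changes of the members remained positive, from 0.16 at Hoxd1 to 1.51 at Hoxd10, and 7 passed the threshold. Without control replicate 2, however, only Hoxd11, Hoxd10, Hoxd9 and Hoxd4 passed (adjusted p = 0.0482 each). Hoxd12, Hoxd8 and Hoxd3 then had log2 fold changes of 1.20, 1.21 and 1.19 and an adjusted p of 0.0518, while 183 of all 18841 promoters tested were higher. That fit leaves a single control library, the shallower one, and takes its spread from the ex14D libraries.

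How the H3K27me3 reads were divided within the cluster does not depend on the scaling of libraries. The reads include background, since no input was subtracted. Summed over the 8 promoters, control libraries held 2513 and 3427 H3K27me3 reads, and ex14D libraries held 11272 and 11819. This was 3943 ± 404 and 8619 ± 1203 CPM (mean ± SD, n = 2), with 408 and 379 CPM in the inputs. Of these reads, Hoxd10 took 15.5% and 15.2% in control, against 19.1% and 20.6% in ex14D. Hoxd9 took 16.8% and 16.3% in control and had 19.5% and 19.6% in ex14D. The shares of both genes were higher in each ex14D library than in each control library.

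The shares of Hoxd12, Hoxd8, Hoxd3 and Hoxd1 lay in the opposite direction. Hoxd12 had 13.8% and 14.8% in control, against 11.9% and 11.6% in ex14D. Hoxd8 had 18.0% and 17.0% in control and 15.6% and 15.3% in ex14D. Both fell short of their control shares in each ex14D library. Hoxd3 had 12.3% and 11.5% in control, against 10.6% and 10.3% in ex14D. Hoxd1 had 0.955% and 0.846% in control and 0.435% and 0.474% in ex14D. At these genes, too, no ex14D share reached the lower control share. Hoxd11, at 18.8% and 18.1% in control and 18.5% in both ex14D libraries, overlapped between genotypes, and so did Hoxd4. No test was made on the shares, which sum to a fixed total and are not independent of each other. The part of background reads in these differences was not tested either.

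**Figure D2:**
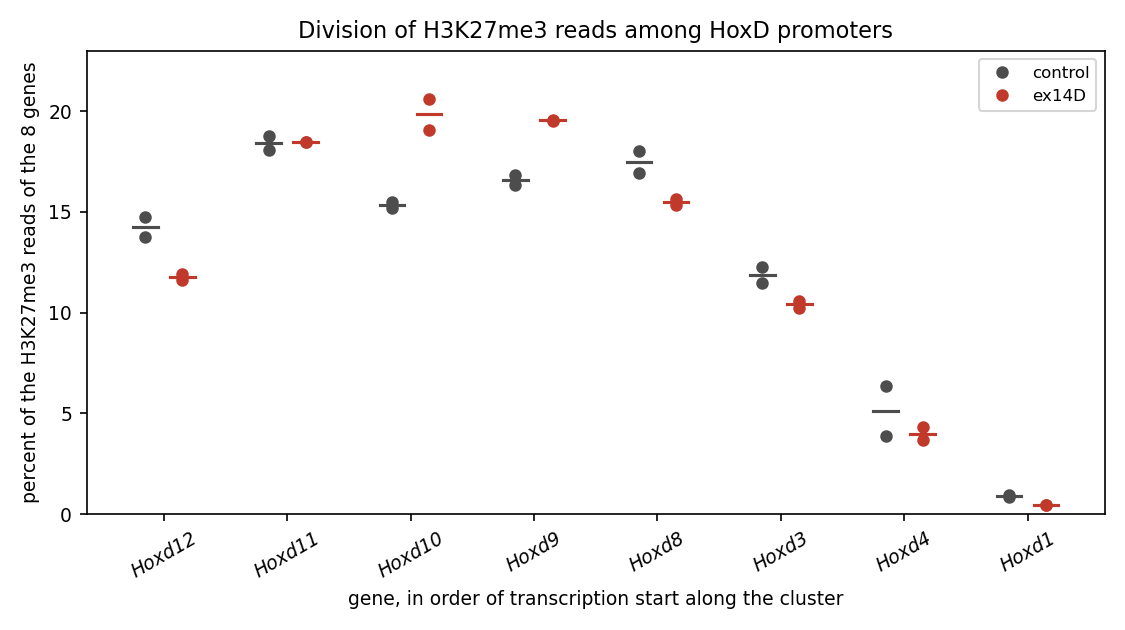
Share of each gene in the H3K27me3 reads summed over the 8 HoxD promoters, in percent, by library. Points are single libraries and lines are means (n = 2). Hoxd10 and Hoxd9 have higher shares in ex14D, Hoxd12, Hoxd8, Hoxd3 and Hoxd1 lower shares, and Hoxd11 and Hoxd4 overlap.

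EZH2 reads followed the length of the gene span and were therefore taken as counts over whole genes, not over promoter windows, and are given as CPM per kb of gene. Levels of EZH2 and of H3K27me3 are not compared with each other for that reason. Hoxd9 had the highest level of the cluster, 65.0 and 61.0 CPM per kb in control, against 51.9 and 37.1 in ex14D. Hoxd11 (40.1 and 40.9) and Hoxd8 (37.4 and 39.9) followed in control, within the sum of their SDs but with Hoxd11 higher in each library. In ex14D, Hoxd11 had 30.6 and 22.7 CPM per kb and Hoxd8 had 31.8 and 22.4. Hoxd10 had 27.1 and 27.8 CPM per kb in control and 21.9 and 16.6 in ex14D. At each of these 4 genes both ex14D libraries were below both control libraries, and ex14D replicate 2 was below replicate 1.

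Hoxd12 had 20.5 and 21.3 CPM per kb in control and 12.2 and 11.0 in ex14D. Hoxd1 had nearly the same control level, 21.5 and 20.5 CPM per kb, and 12.2 and 6.87 in ex14D. Hoxd3, by far the longest of the genes, had 10.3 and 10.2 CPM per kb in control and 6.93 and 4.60 in ex14D. These 3 genes also did not overlap between genotypes. The share of all genes without such overlap was not counted. Per kb of the bases that Hoxd3 does not share with another gene, a calculation added after the data had been seen, its level was 14.9 and 14.8 in control and 10.1 and 6.69 in ex14D, still the lowest with counts in control.

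Hoxd4 is listed at 0 in all 4 EZH2 libraries. None of its 7183 bp lies outside the span of Hoxd3, so a read over Hoxd4 falls on both genes, and the 0 gives no measure of EZH2 there. Outside the cluster, Lnpk1, Mtx2 and Nfe2l2 had between 0.93 and 1.08 CPM per kb in every EZH2 library, far below each of the 7 members with counts. Evx2, a homeobox gene next to the 5′ end of the cluster, had 34.1 and 34.7 CPM per kb in control and 27.1 and 20.1 in ex14D, within the range of the members.

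**Figure D3:**
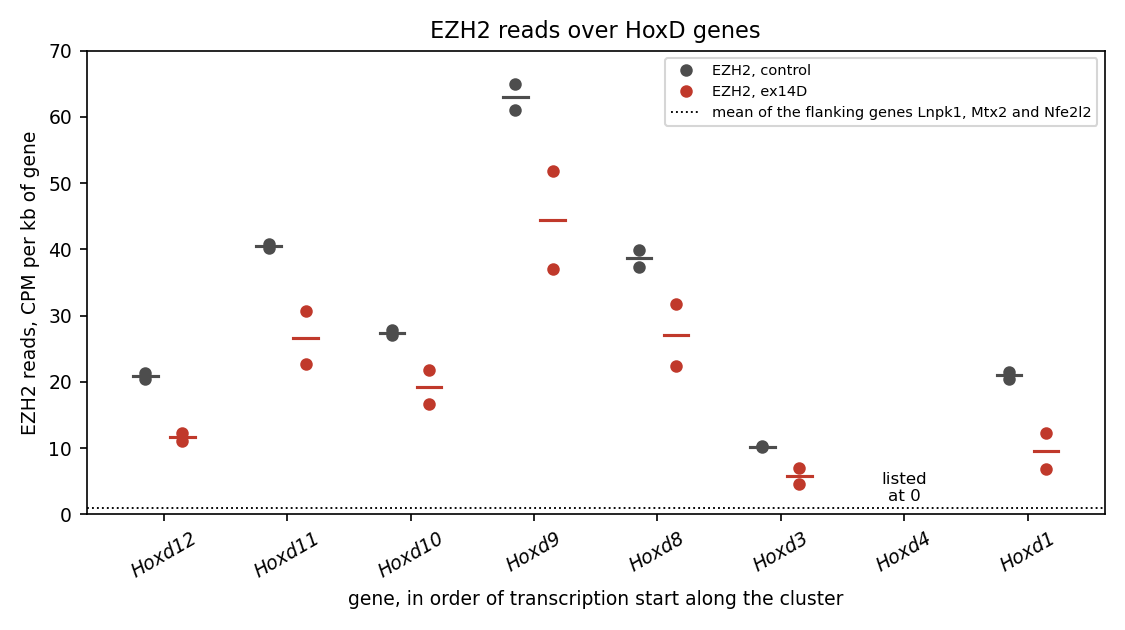
EZH2 reads over HoxD genes, in CPM per kb of gene on a linear axis, by library. Points are single libraries, lines are means (n = 2), and the dotted line is the mean of the flanking genes Lnpk1, Mtx2 and Nfe2l2. Both ex14D libraries lie below both control libraries at the 7 genes with counts, and Hoxd4 is listed at 0. How many of all genes separate in this way was not counted.

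The same test was applied to the EZH2 counts to ask whether binding at these genes differed between the genotypes, over 13401 genes that passed the filter. Hoxd4 was not among them. EZH2 was lower in ex14D at 5 of the 7 members tested and higher at none. Of all genes tested, 1056 (7.88%) were lower and 7 (0.0522%) were higher. The median log2 fold change was −0.65 over the members and 0.02 over all genes. Like those of H3K27me3, these values are relative to the other genes of the same libraries.

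Hoxd1 had the largest decrease, a log2 fold change of −1.20 (SE 0.21, adjusted p = 0.0143), or 2.29-fold. Hoxd12 changed by −0.89 (SE 0.07, adjusted p = 0.00325) and Hoxd3 by −0.87 (SE 0.16, adjusted p = 0.0170). Hoxd11 (−0.65, SE 0.12, adjusted p = 0.0180) and Hoxd10 (−0.56, SE 0.12, adjusted p = 0.0283) were also lower. Hoxd9 had −0.54 (SE 0.14, adjusted p = 0.0587) and Hoxd8 −0.56 (SE 0.14, adjusted p = 0.0636), and neither passed the threshold. Their changes were of nearly the same size as that of Hoxd10, and a difference between these genes was not tested.

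The calls depended on the libraries. The ex14D libraries differed more from each other than the control libraries did, with sums over the members of 842 and 599 CPM against 1144 and 1146 CPM. Without either control library, edgeR called 0 of the 7 members and 0 of all genes lower, with 1372 and 1300 genes lower at an unadjusted p under 0.05, and the log2 fold changes of all members stayed negative. Without ex14D replicate 1 or replicate 2 all 7 members were called, with medians of −0.90 and −0.44, and lower genes numbered 1561 of 13526 and 1188 of 13435 over all genes tested. With DESeq2, which called 743 of 12370 genes lower, all 7 members were lower, Hoxd9 with an adjusted p of 0.0471 and Hoxd8 with 0.0479.

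**Figure D4:**
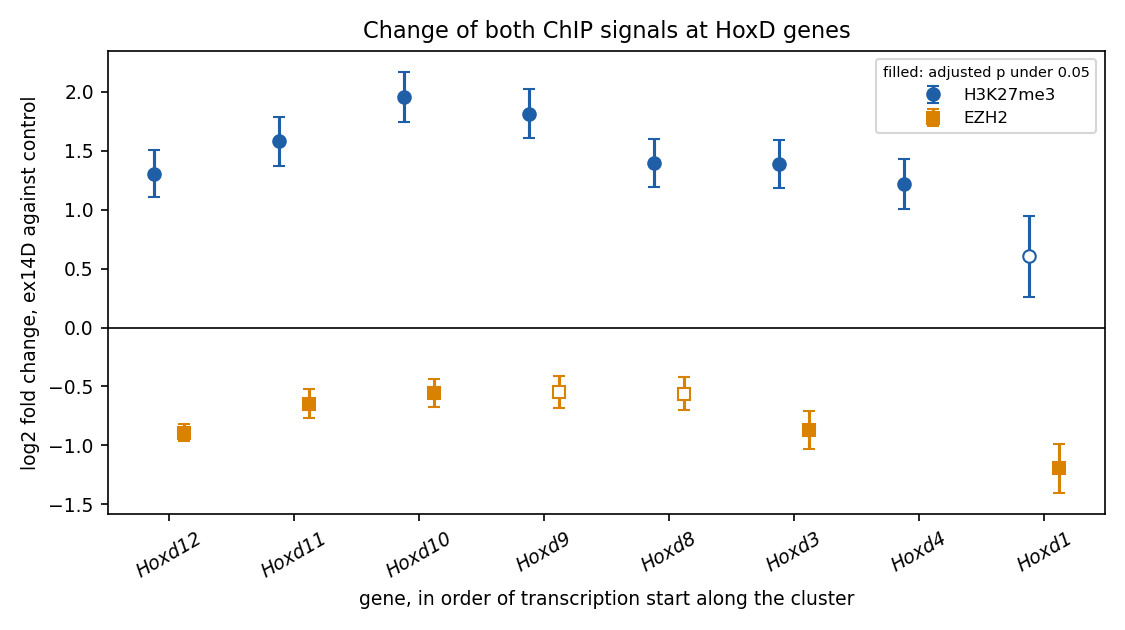
Log2 fold change of ex14D against control at each HoxD gene for H3K27me3 (circles) and EZH2 (squares), with bars of 1 SE from edgeR. Filled symbols have an adjusted p under 0.05. Each antibody was scaled on its own libraries. H3K27me3 is above 0 at all 8 genes and EZH2 below 0 at the 7 genes tested, with Hoxd1, Hoxd9 and Hoxd8 each missing the threshold for 1 antibody.

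On their relative scales, both changes were thus present at the same genes in opposite directions. Hoxd12, Hoxd11, Hoxd10 and Hoxd3 passed the test as higher in H3K27me3 and as lower in EZH2. Each value is relative to the other genes measured with the same antibody, so neither gives an amount per cell. By Western blot the paper reports less EZH2 protein and less total H3K27me3 in ex14D cells. Hoxd10 and Hoxd9, with the largest H3K27me3 increases, had the smallest EZH2 decreases together with Hoxd8. Hoxd1, with the smallest H3K27me3 value, had the largest EZH2 decrease. That H3K27me3 value rested on 24 to 56 reads per library and did not pass the threshold. Without ex14D replicate 2, Hoxd1 and Hoxd12 had the same EZH2 value, −0.81, and without ex14D replicate 1 Hoxd1 had −1.68. This order is a description over 7 genes of 1 locus that share their libraries.

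Peaks and domains, which were called separately in each library, give the extent of both signals. H3K27me3 peaks covered 97.7% to 100% of the 90130 bp from Hoxd12 to Hoxd1 in every library, and each of the 8 promoter windows was covered over its whole 1000 bp. In control replicate 2 a single peak of 121 kb (chr2:74646284-74767562) held the entire cluster and was the 4th widest of 19978 peaks. In control replicate 1 the cluster was held by peaks of 72.7 kb (chr2:74646751-74719408) and 47.7 kb (chr2:74721081-74768769), and the gap of 1672 bp between them ended 897 bp upstream of Hoxd4.

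In ex14D replicates 1 and 2, peaks of 112 kb (chr2:74646650-74758245) and 105 kb (chr2:74653516-74758246) held the 7 members from Hoxd12 to Hoxd4, and Hoxd1 lay in a peak of its own of 6.60 kb and 5.07 kb. The gaps before it measured 1496 and 2091 bp, inside the stretch between Hoxd4 and Hoxd1 that was covered in both control libraries. The fold enrichment given by the peak caller was 15.1 and 14.3 for these wide peaks, against 3.59, 7.79 and 4.05 for the wide peaks of control. The median fold enrichment over all peaks was 4.77 and 5.50 in ex14D and 3.30 and 3.04 in control, so it moved in the same direction genome-wide, and its part in the difference at HoxD was not tested.

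EZH2 domains covered 88.7% and 100% of the cluster in control and 85.4% and 91.0% in ex14D, and also contained each of the 8 promoter windows in full, including that of Hoxd4. In control replicate 2 a single domain spanned 118 kb (chr2:74648001-74766000). In control replicate 1 and ex14D replicate 1 a gap at the same position (chr2:74716001-74721000), 977 bp upstream of Hoxd4, split the cluster. Hoxd1 had a separate domain of 4.00 kb in control replicate 1 and of 3.00 kb in both ex14D libraries (chr2:74762001-74765000). The isolation of Hoxd1 was therefore seen in both ex14D libraries for both antibodies, and for EZH2 also in 1 control library.

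**Figure D5:**
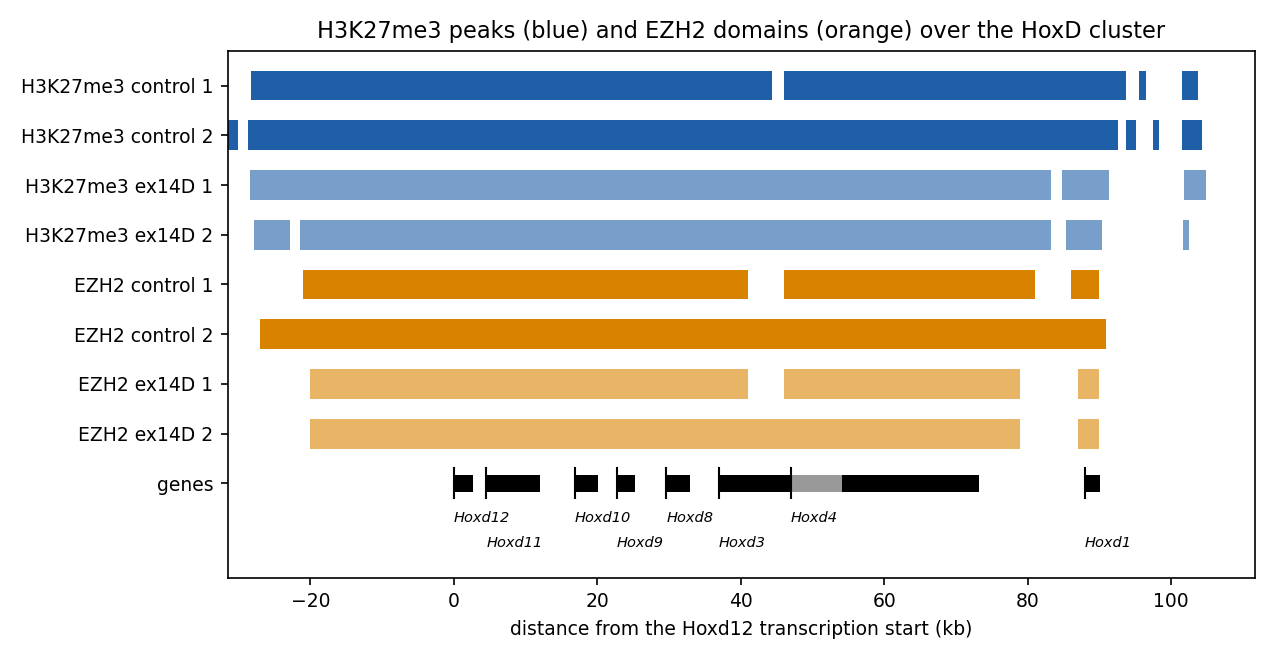
H3K27me3 peaks (blue) and EZH2 domains (orange) of each library, drawn against the distance from the Hoxd12 start in kb, with gene spans in black and Hoxd4 in grey inside Hoxd3. Dark bars are control and light bars ex14D libraries. Every promoter, marked by a tick, lies under a bar in all 8 libraries, and gaps occur upstream of Hoxd4 and of Hoxd1.

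The genes around the cluster and the other Hox clusters were taken as context. Evx2 had 693 and 562 CPM of H3K27me3 in control and 1560 and 2115 CPM in ex14D, a log2 fold change of 2.00 (SE 0.22, adjusted p = 1.81e-06), and an EZH2 log2 fold change of −0.59 (SE 0.12, adjusted p = 0.0266). Mtx2, a mitochondrial protein gene beyond Hoxd1, had 11.0 to 17.1 CPM of H3K27me3 and log2 fold changes of 0.06 for H3K27me3 and 0.01 for EZH2, neither past the threshold, and its H3K27me3 value was −0.38 with scaling by library size alone and −0.08 with all counted reads. Atp5g3, Lnpk1, Hnrnpa3 and Nfe2l2 did not pass the filter for H3K27me3 and were not called for EZH2.

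H3K27me3 was higher in ex14D at 10 of 10 HoxA genes, 9 of 9 HoxB genes and 7 of 8 HoxC genes, with medians of 1.76, 1.64 and 1.43 beside 1.39 in HoxD and against 5.83% of all promoters. Without control replicate 2 fewer genes of each of these clusters passed, as over all promoters, and the medians were 1.74, 1.42 and 1.39. The largest values were at Hoxa11 (1.98), Hoxb3 (2.09) and Hoxc8 (1.84) and the smallest at Hoxa5 (1.36), Hoxb1 (1.04) and Hoxc4 (0.60, adjusted p = 0.0634, not called). A difference between the clusters was not tested. For EZH2, 6 of the 7 HoxA genes tested were lower, with a median of −0.60, against 1056 (7.88%) of all genes. With the replicate block 4 were lower, against 852 of all 13401 genes tested. Without control replicate 1 or 2 these calls were lost, as over all genes, with HoxA medians of −0.57 and −0.65. All 9 HoxB and all 8 HoxC genes are listed at 0 in every EZH2 library, as are 10575 of all genes, and could not be compared.

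Cofactors and upstream regulators of Hox genes were counted in the same way. Of 16 such genes, 13 were tested for H3K27me3. Of these, 3 were higher and 1 was lower, against 5.83% and 3.25% of all promoters, with a median of −0.32. With library size alone 2 were higher and 4 lower, with a median of −0.76, and without control replicate 2 none was higher and 1 was lower. Cdx2, a caudal homeobox factor that activates Hox genes, had 1.37 (adjusted p = 4.12e-05), and Meis2 and Meis1, homeodomain cofactors of Hox proteins, had 1.32 and 0.80. Pbx3, another cofactor, was lower, with −2.27 (SE 0.35, adjusted p = 5.65e-05). For EZH2, 7 were tested and 3 were lower, namely Cdx2 (−0.78), Meis2 (−0.38) and Pknox2 (−0.27), against 7.88% of all genes. With DESeq2 1 was lower, and without either control library none was called. Among the ES cell genes, 3 were tested for H3K27me3 and only Klf4, which encodes a pluripotency factor, was called, with −0.88 (adjusted p = 0.0433). That call was lost with DESeq2 size factors, all counted reads, TMM on unmarked promoters, the replicate block and each library left out. For EZH2, Klf4 had −1.45 (adjusted p = 0.00398) and was the 1 gene called of 2 tested, a call not made without either control library.

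Outside the Hox clusters, the promoters with values most like the median HoxD member over the 6 H3K27me3 and input libraries were Wnt6, Neurod2, Tmem132e, Olig2 and Barhl2. Their distances on the log2(CPM + 1) scale were 0.18 to 0.36, small because they were chosen as the nearest promoters that passed the filter. Distances of the HoxD genes themselves ran from 0.63 at Hoxd8 and 0.79 at Hoxd9 to 3.36 at Hoxd4 and 10.2 at Hoxd1. Wnt6, which encodes a secreted signalling protein, had 601 and 572 CPM in control and 1019 and 1152 CPM in ex14D, values that entered its choice. For EZH2, Wnt6 (−0.91, adjusted p = 0.00764) and Barhl2 (−0.61, adjusted p = 0.0428) were lower, and the other 3 genes are listed at 0.

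Reads on genes numbered 594289 to 1450937 in the H3K27me3 libraries, 409371 and 416778 in the inputs and 13628137 to 18403892 in the EZH2 libraries. Control and ex14D libraries for H3K27me3 differed in depth, with 594289 and 937207 reads in control against 1450937 and 1248018 in ex14D. The part of this in the results at HoxD was not tested. Replicates were no repeat deposits of 1 library: the chi-square of their counts over genes, divided by its degrees of freedom, was 1.95 to 2.31 for H3K27me3, and for EZH2 it was 1.48 in control and 3.95 in ex14D. The labels do not say that replicates came from separate cultures, so p-values measure the spread between these libraries, which may be technical.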

How the data were processed

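ChIP-seq reads were aligned by the authors with Bowtie according to the methods, or Bowtie2 according to the submitters' processing notes, which also name Trimmomatic, MACS2, ChIPseeker and HTSeq and the build mm10. Versions are not given in the sources used here. The authors deposited whole-number counts per gene without normalization. The methods give 1 kb promoter windows, while the EZH2 counts followed gene length (rank correlation with the span 0.895 to 0.934, against 0.138 to 0.16 for H3K27me3) and were taken as counts over genes. Whether counting used strand is not stated. Reads on no gene (92.0% to 94.0% of counted reads for H3K27me3, 97.9% to 98.0% for input, 33.8% to 34.9% for EZH2) stayed out of library sizes. MACS2 broad peaks were deposited by the authors for each library with a fold enrichment, a −log10 p and a −log10 q. The control given to MACS2 is not named. EZH2 domains from hiddenDomains were used as deposited by the authors. The H3K27me3 domains were not used, because their coordinates run past the ends of 8 chromosomes of GRCm38.

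Libraries were grouped by genotype and antibody as labelled. Counts were compared with edgeR 4.0.16 in R 4.3.3 (quasi-likelihood F test after filterByExpr and TMM, Benjamini-Hochberg adjustment over all genes tested, threshold 0.05), each antibody alone. SEs were derived from the fold change and its F statistic and are approximate. The pseudocount was 1 CPM. Genes were placed with the RefSeq annotation of GRCm38.p6, which matched 24357 of 24500 symbols. CG and TATAAA were searched on both strands. On simulated data with the depth of these libraries, edgeR recovered 21% of 2-fold and 80% of 4-fold changes for H3K27me3 (13597 genes, 2.88% false calls). For EZH2 it recovered 89% and 100% (13314 genes, 1.56% false calls). The simulation gave all genes and both genotypes the same spread, whereas the real EZH2 replicates differed more in ex14D than in control. Its rates therefore need not hold for the real libraries. DESeq2 1.42.0, other scalings and filters, a replicate block and each library left out in turn were alternatives. Replicate numbers were not used to pair libraries in the main fits. Other calculations were run with scipy 1.17.1 and pandas 2.3.3 under Python 3.11.15.

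The members and gene lists were chosen with earlier results of these data known. Genes named were all members, the flanking genes, the largest rise and fall of each list, and the 5 genes nearest to the median member by Euclidean distance. Other called members of the lists with few calls, the values of Hoxa5, Hoxb1 and Hoxc4, and Klf4 were named after their values were seen. The largest EZH2 fall of the HoxA list is not reported here.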

Additional observations from a re-analysis of the deposited data

How the results depend on the processing

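No direction of a member or of a median over the members reversed under any alternative. The H3K27me3 median over all promoters was 0.11 with TMM on unmarked promoters, and that of the regulators −0.76 with library size only, −0.10 with no filter and −0.13 with DESeq2. Of single-member tests, 85 for H3K27me3 and 59 for EZH2 stayed on the same side of the threshold, whether called or not. A call was lost in 3 and 11, and 7 for EZH2 gained one. With library size only, the H3K27me3 median of the members was 0.945, and 398 promoters were higher and 2130 lower. TMM on unmarked promoters gave 282 lower H3K27me3 promoters and 1 higher EZH2 gene, and DESeq2 gave 266 and 0 (7 at an unadjusted p under 0.05). Higher EZH2 genes came to 2 with DESeq2 size factors, 3 with the replicate block, 33 with all counted reads and 47 when scaled by library size. Leaving out 1 library gave, for H3K27me3, 4 to 7 members higher, 183 to 797 promoters higher, 55 to 610 lower, and for EZH2 0 to 7 members lower, a median of −0.90 to −0.44, 0 to 1561 genes lower and 0 to 81 higher. A lone library was assumed to vary like the other group. With all counted reads as the total, the median H3K27me3 over input was 3.98 in control and 5.40 in ex14D, and EZH2 per kb was 12.1 and 8.46. Per kb of exons EZH2 was 59.4 and 41.6. Deviations of same-numbered libraries correlated at −0.0908 for H3K27me3 and −0.0183 for EZH2 over gene counts. EZH2 domains, however, had a median width of 2000 bp in replicate 1 and 3000 bp in replicate 2 of both genotypes. Whether same-numbered libraries share a batch or a processing step was not tested. With the replicate block, 7 members were higher for H3K27me3 (median 1.39), as were 765 of 14883 promoters. For EZH2, 5 of 7 members were lower (median −0.66), as were 852 of 13401 genes. Hoxd9 gained its EZH2 call (adjusted p = 0.0408) and Hoxd10 lost it (adjusted p = 0.0556). Hoxd1 rested on 24 to 56 H3K27me3 reads, and whether its count or a smaller change left it uncalled was not tested.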
